A study of Mus musculus with 4 samples.

Results

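The genes described here are 10 direct transcriptional targets of β-catenin, Axin2, Lef1, Tcf7, Nkd1, Notum, Znrf3, Rnf43, Ccnd1, Ccnd2 and Myc, measured in mouse hearts with an S21A knock-in of GSK-3α and in wild-type hearts. Every probe set whose single gene symbol in the array annotation is one of these names was taken, which gave 23 of the 45101 probe sets on the array, for 9 of the 10 genes. Tcf7 had no such probe set and was not analysed here. Per the labels, the knock-in hearts came from C57B6 mice whose GSK-3α carries alanine in place of a regulatory serine (2 arrays), and the wild-type hearts from C57B6 mice without that change (2 arrays). All mice were 3.6 months old and at baseline, and total RNA of the heart was hybridised to single-colour Affymetrix arrays. Whether the arrays come from different animals is not stated in the labels, so n is a number of arrays. Levels are log2 values from RMA, the summary method used for these arrays, and every difference below is knock-in minus wild-type. The comparison asks whether transcripts that report β-catenin activity respond to a GSK-3α that lacks this inhibitory site.

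As background, GSK-3 phosphorylates β-catenin within a complex that holds Axin and APC and marks it for destruction. When a Wnt ligand binds Frizzled and LRP5 or LRP6, this complex is held back, β-catenin accumulates, enters the nucleus and switches on genes through TCF/LEF factors. Several of those genes feed back on the pathway. Axin2 rebuilds the destruction complex, Nkd1 binds Dishevelled, Notum is a secreted enzyme that removes the lipid from Wnt ligands, and the membrane ubiquitin ligases Znrf3 and Rnf43 remove Frizzled receptors from the cell surface. Lef1 and Tcf7 encode factors that carry β-catenin to DNA. Ccnd1 and Ccnd2 encode D-type cyclins, which activate Cdk4 and Cdk6 to start the cell cycle, and Myc encodes a growth-promoting transcription factor. The serine of GSK-3α that is changed here is the site through which Akt and related kinases inhibit the enzyme, while the GSK-3 bound to Axin is generally regarded as a separate pool.

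The letters just before the starts of these genes are shown because TCF/LEF factors read a short motif, CTTTGAT or CTTTGAA, whose first 6 letters are CTTTGA. RefSeq windows on GRCm38.p6 were matched by symbol for 5 of the 10 genes, in 10 windows of 250 bases before an annotated start. On both strands, CTTTGAT stood in 0 and CTTTGAA in 0 of these 10 windows, against 3.21% and 4.46% of all 32851 windows. The 6 letters CTTTGA, which overlap both, stood in 1 of the 10 windows and in 13.8% of all. That window precedes an annotated Lef1 start inside the gene and holds the motif at 180 and 120 bases before the start, read on the opposite strand. A match is a description of letters, and a window without it says only that the letters are not in these 250 bases. The Axin2 window (chr11:108920099-108920348, plus strand) holds none, and the Lef1 window (chr3:131156044-131156293, plus strand) has its 2 matches in capitals.
Axin2: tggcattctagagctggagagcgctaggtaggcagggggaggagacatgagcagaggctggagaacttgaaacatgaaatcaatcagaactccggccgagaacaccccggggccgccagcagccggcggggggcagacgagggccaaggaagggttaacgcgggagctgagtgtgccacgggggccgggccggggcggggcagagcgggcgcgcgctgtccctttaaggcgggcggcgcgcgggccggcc
Lef1: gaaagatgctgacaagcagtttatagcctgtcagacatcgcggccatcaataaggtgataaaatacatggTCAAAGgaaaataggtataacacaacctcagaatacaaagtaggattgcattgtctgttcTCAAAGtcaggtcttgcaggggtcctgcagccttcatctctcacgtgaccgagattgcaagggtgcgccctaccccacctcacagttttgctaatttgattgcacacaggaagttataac

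Across the whole table, 3 of 45037 tested probe sets passed limma's test at an adjusted p under 0.05, or 0.00666%, and they measure Cap1 and Cyp1a1. All 12 cardiomyocyte markers lay above the array median on every array, with list medians of 14.44 and 14.39 in knock-in and 14.36 and 14.33 in wild-type hearts, as the heart label requires. All 15 measured liver markers had higher means in the knock-in hearts, with list medians of 8.58 and 7.04 in knock-in against 6.07 and 5.65 in wild-type hearts. None of them passed the test after adjustment. At an unadjusted limma p under 0.05, 14 were higher, beside 5.45% of all genes. For 14 the groups did not overlap on the higher side, beside 22.5% of all genes. RNA quality was read from the Gapdh control probe sets as 3′ minus 5′ log2 signal, which was 0.54 and 0.76 on the knock-in arrays and 0.62 and 0.61 on the wild-type arrays. In these bulk samples, fewer cells of a type and less RNA per cell cannot be told apart.

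The β-catenin targets showed no difference past the test. Of the 23 probe sets, 0 were called by limma (adjusted p between 0.458 and 0.991). In knock-in hearts 8 had higher and 15 had lower means, beside 41.4% of all probe sets with a higher mean. The differences ran from −0.39 for an Nkd1 probe set to 0.34 for a Ccnd1 probe set. At an unadjusted p under 0.05, 1 was higher (5.07% of all probe sets were) and 2 were lower (5.62% of all), or 3 of 23 beside 10.7% of all probe sets in either direction. The median difference was −0.12 over the 23 probe sets and −0.04 over all probe sets. The groups did not overlap for 8 of the 23, or 34.8%, beside 45.2% of all probe sets, with 2 higher (18.5% of all) and 6 lower (26.7% of all). For 18 of the 23 probe sets, or 78.3%, the gap between arrays of the same genotype exceeded the difference between genotypes, in at least 1 genotype, beside 69.4% of all probe sets. With 2 arrays against 2, an exact permutation test of any single value cannot give a two-sided p below 0.333.

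The size of change that these arrays leave room for is bounded by the intervals, and a count of 0 calls with 2 arrays per genotype does not show equal levels. All 23 of the 95% intervals lay inside ±1, that is, within a 2-fold change either way, and 16 lay inside ±0.5. The widest bound was −0.82, for a Ccnd2 probe set. RMA compresses differences of dim probe sets, so the intervals bound the RMA value and not the transcript where a probe set lies near background. The standard errors of the 23 differences ran from 0.10 to 0.25, with a median of 0.12, the same as over all probe sets (0.12).

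**Figure D1:**
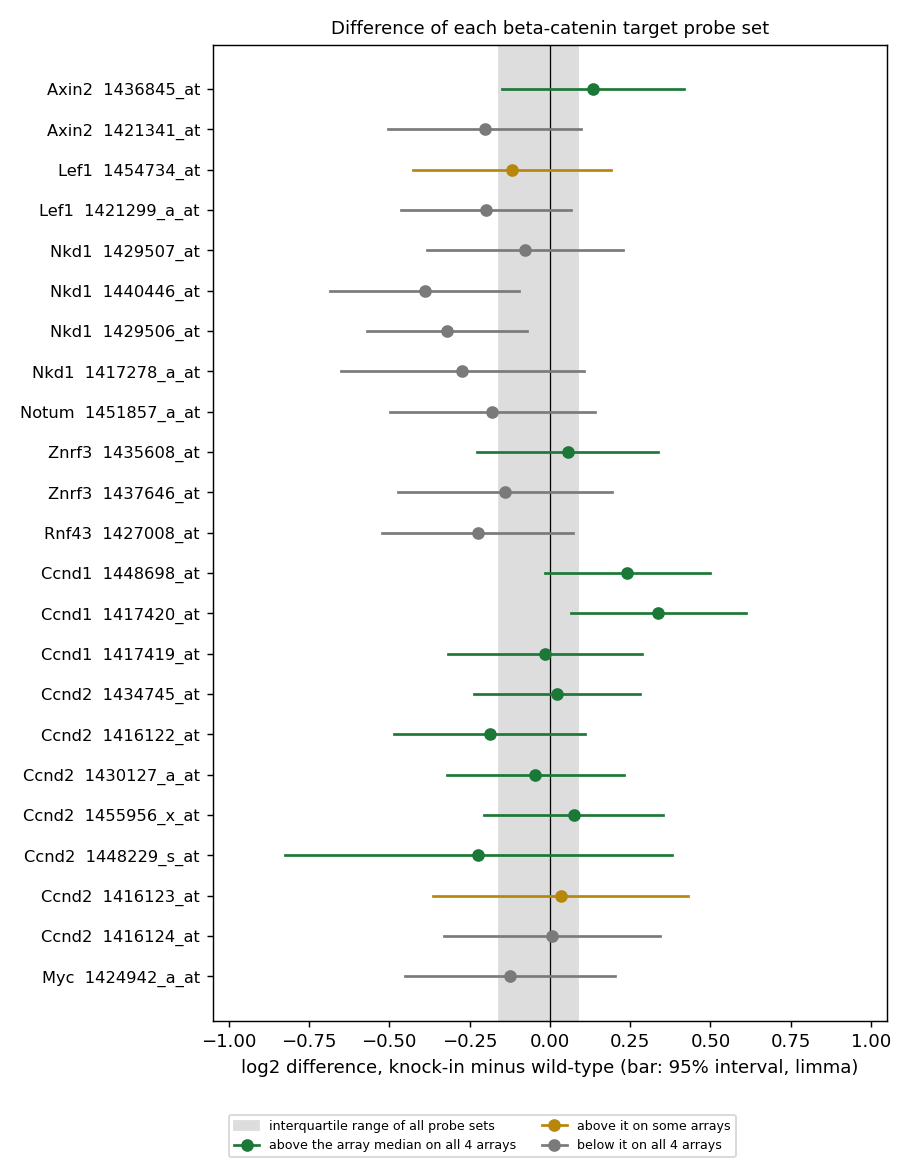
Log2 difference, knock-in minus wild-type, of each of the 23 probe sets with its 95% interval from limma (n = 2 arrays per genotype); the grey band is the interquartile range over all probe sets and colours give the level against the array median. Only 3 intervals leave out 0, those of Nkd1 1440446_at and 1429506_at below it and of Ccnd1 1417420_at above it, and none of the 23 passed after adjustment.

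Axin2, the most widely used transcript readout of β-catenin activity, had values of 7.99 and 8.16 in knock-in hearts, against 8.00 and 7.88 in wild-type hearts, by its brighter probe set 1436845_at. The lower knock-in array lay between the wild-type arrays, so the groups overlapped. The difference was 0.13 (standard error 0.12), with a 95% interval from −0.15 to 0.42 (limma adjusted p = 0.650). The other Axin2 probe set, 1421341_at, was dim, at 4.19 and 4.12 in knock-in and 4.48 and 4.23 in wild-type hearts, below the array median on all 4 arrays. Its groups did not overlap, and its difference of −0.20 had the opposite sign (adjusted p = 0.544). Averaging the probe sets of the gene gave −0.03, so the sign of the Axin2 difference depends on the probe set. Liver cells next to the central vein are known for β-catenin target expression. Of 7 measured markers of that zone, 5 were higher in the knock-in hearts, and 0 passed the test. Cyp2e1 led at 1.90, and Glul, the glutamine synthetase gene, stood at 0.20. The other 2 were lower, Slc1a2 among them at −0.28. The list medians were 6.67 and 6.64 in knock-in, against 7.15 and 6.68 in wild-type hearts. The part of liver RNA in the Axin2 values was not tested.

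Lef1, which encodes a DNA-binding partner of β-catenin, had 6.25 and 5.97 in knock-in hearts, against 6.22 and 6.23 in wild-type hearts, by probe set 1454734_at. Knock-in replicate 2 stood below the other 3 arrays, and knock-in replicate 1 stood above them by a small margin. The genotypes differed by −0.12, with a standard error of 0.13, an interval from −0.42 to 0.19 and a limma adjusted p of 0.718. By the dimmer probe set 1421299_a_at the values were 4.64 and 4.65 in knock-in and 4.92 and 4.78 in wild-type hearts, without overlap and with a difference of −0.20 (adjusted p = 0.514). Lef1 and Tcf7 are also genes of T lymphocytes. Of 13 measured T lymphocyte and thymus markers, 12 were lower in the knock-in hearts, with a median difference of −0.20 and list medians of 6.01 and 5.83 in knock-in against 6.14 and 6.05 in wild-type hearts. None of the 13 passed the test, and 4 lay above the array median on every array. Over all probe sets below the array median on every array, 75% were lower. Cd3e, part of the T cell receptor complex, had 7.64 and 7.51 in knock-in against 7.77 and 7.78 in wild-type hearts. Cd28 was the 1 higher marker, at 0.21. The part of T lymphocyte RNA in the Lef1 values was not tested.

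The probe sets of the other TCF/LEF family genes did not share a direction. Tcf7l1, which mostly represses its targets, had 8.80 and 8.95 in knock-in hearts, against 9.31 and 9.20 in wild-type hearts by its brightest probe set, a difference of −0.37 with an interval from −0.65 to −0.10 (limma adjusted p = 0.458). Its other probe set differed by 0.01. Tcf7l2, which both activates and represses β-catenin targets, differed by 0.23 (adjusted p = 0.506) by its brightest probe set, while the remaining 3 ran from −0.23 to 0.24.

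Nkd1, the Dishevelled-binding inhibitor, was the gene with the most negative differences, and all 4 of its probe sets were lower in the knock-in hearts. Probe set 1440446_at had 5.52 and 5.64 in knock-in hearts, against 6.07 and 5.86 in wild-type hearts. Probe set 1429506_at had 5.44 and 5.49 in knock-in hearts, against 5.79 and 5.79 in wild-type hearts. In both the groups did not overlap, and the gap between genotypes was larger than the gap between replicates. Their differences were −0.39 with a standard error of 0.12 and −0.32 with a standard error of 0.10, and neither passed the test (limma adjusted p = 0.458 for each). The brightest probe set, 1429507_at, had 5.88 and 5.77 in knock-in hearts, against 6.02 and 5.78 in wild-type hearts, and differed by only −0.08 with overlap between the groups. The remaining probe set, 1417278_a_at, had 4.65 and 4.88 in knock-in and 5.22 and 4.86 in wild-type hearts, a difference of −0.27 (adjusted p = 0.527). All 4 probe sets lay below the array median on every array, and 2 of them were designed from the same transcript record, so they are not independent. Among the 21231 probe sets as dim, 2.15% had a difference as low as that of 1440446_at and 5.89% as low as that of 1429506_at. For 1417278_a_at the share was 10.8%, and for the brightest, 1429507_at, it was 54.8%.

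Notum, whose enzyme inactivates Wnt ligands, was measured by 1 probe set, with 5.56 and 5.30 in knock-in hearts, against 5.69 and 5.53 in wild-type hearts. Knock-in replicate 1 lay between the wild-type arrays, and the probe set was below the array median on all 4. The difference was −0.18 with an interval from −0.50 to 0.14 (limma adjusted p = 0.599).

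The genes of the receptor-removing ligases gave no common direction. Znrf3 had 7.35 and 7.36 in knock-in hearts, against 7.20 and 7.40 in wild-type hearts, by probe set 1435608_at, so the knock-in arrays were nearly equal and lay between the wild-type arrays. The genotypes differed by 0.06, with an interval from −0.23 to 0.34 (limma adjusted p = 0.867). The dimmer Znrf3 probe set 1437646_at had 5.58 and 5.25 in knock-in and 5.55 and 5.56 in wild-type hearts, a difference of −0.14 that came from knock-in replicate 2 alone. Without that array it was 0.03. Rnf43, the paralogue of Znrf3, had 3.97 and 4.20 in knock-in hearts, against 4.35 and 4.27 in wild-type hearts. Its groups did not overlap, with a difference of −0.23 and an interval from −0.52 to 0.07 (adjusted p = 0.511), at one of the lowest levels among the 23 probe sets.

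**Figure D2:**
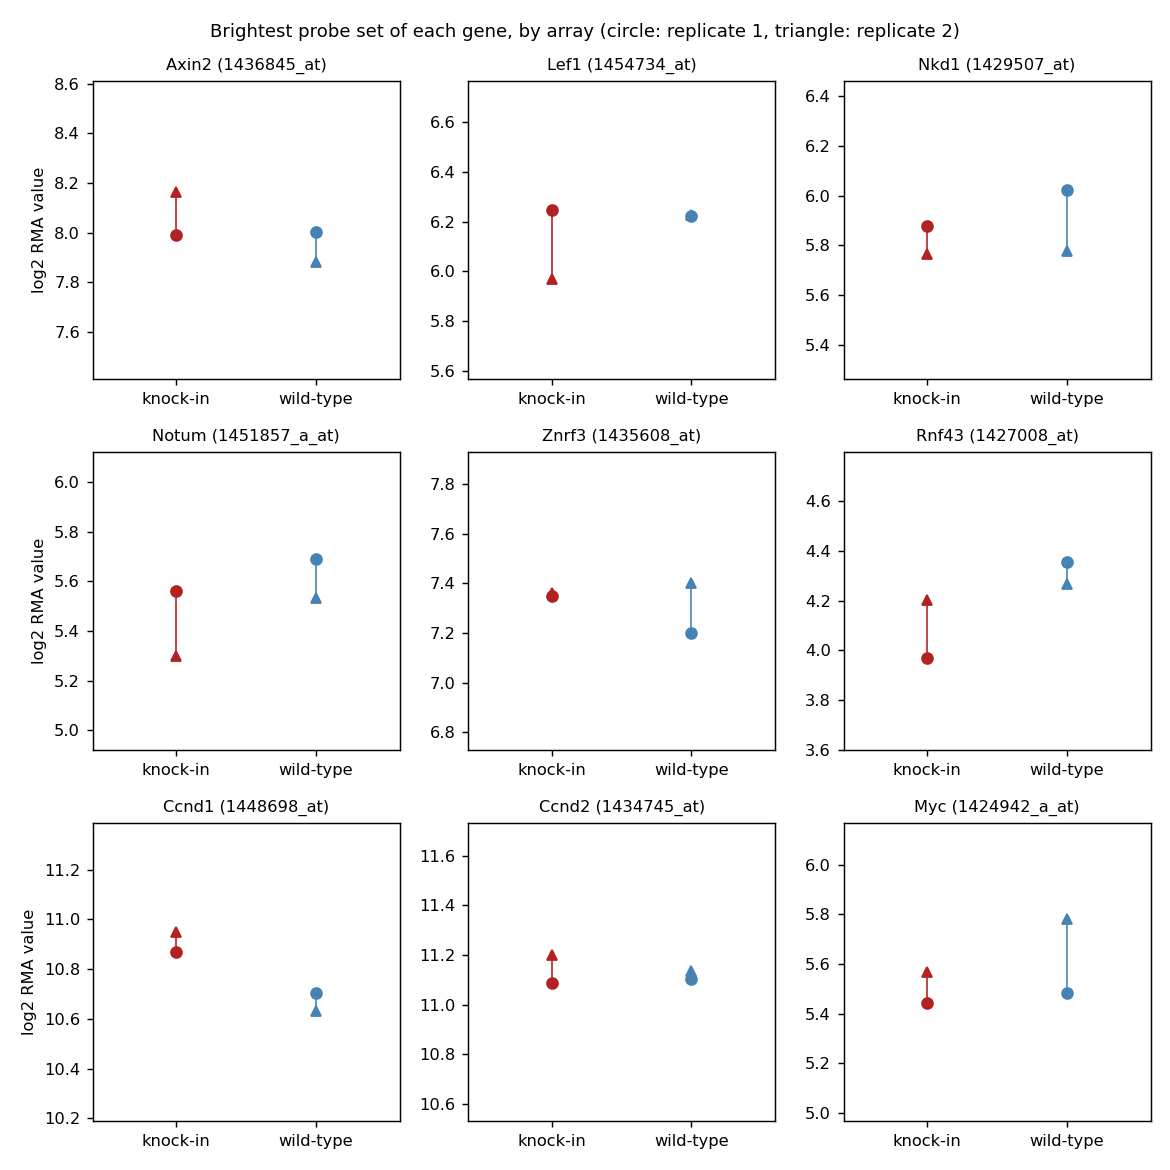
Log2 RMA values of the brightest probe set of each of the 9 measured genes, by genotype (n = 2 arrays each; circle, replicate 1; triangle, replicate 2), with every panel spanning the same range of 1.2 log2 units. The knock-in and wild-type arrays separate for Ccnd1 and Rnf43 and overlap for the other 7 genes. Over all genes, by 1 probe set each, 22.5% separate on the higher and 24.1% on the lower side.

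Ccnd1, the cyclin D1 gene, was the gene with the most positive differences. Probe set 1417420_at had 10.32 and 10.34 in knock-in hearts, against 9.91 and 10.08 in wild-type hearts. Probe set 1448698_at had 10.87 and 10.95 in knock-in hearts, against 10.70 and 10.63 in wild-type hearts. Both knock-in arrays lay above both wild-type arrays in each, and the gap between genotypes exceeded the gap between replicates. Knock-in minus wild-type was 0.34 for 1417420_at, or 1.26-fold, with an interval from 0.07 to 0.61. It was 0.24 for 1448698_at, or 1.18-fold, with an interval from −0.02 to 0.50, and each standard error was 0.11. Neither passed the test (limma adjusted p = 0.458 and 0.473). The remaining probe set, 1417419_at, had 8.44 and 8.66 in knock-in hearts, against 8.63 and 8.50 in wild-type hearts, and differed by −0.02 with an interval from −0.32 to 0.29. All 3 probe sets were designed from the same Ccnd1 transcript record and lay above the array median on every array. Among the 21250 probe sets as bright, 7.07% had a difference as high as that of 1417420_at and 14.2% as high as that of 1448698_at. A difference as low as that of 1417419_at was found in 38.8%. With 1 array left out, the difference lay between 0.25 and 0.42 for 1417420_at and between 0.20 and 0.28 for 1448698_at. As the groups did not overlap, leaving out an array could not turn these signs. For 1417420_at it was 0.40 with arrays shifted to 1 median, 0.26 after quantile normalisation and 0.26 after cyclic loess. The same settings gave 0.30, 0.17 and 0.17 for 1448698_at.

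Markers of other cell types were set beside the Ccnd1 values. Of 12 fibroblast markers, all were higher in the knock-in hearts, with a median of 0.19. The same held for 11 of 12 endothelial markers (median 0.14), and 0 of either list passed the test. Every marker in both lists lay above the array median on every array. Over all such probe sets the median difference was 0.04, and 42.2% were lower. The fibroblast list medians were 10.48 and 10.78 in knock-in against 10.57 and 10.42 in wild-type hearts, and the endothelial ones 10.13 and 10.28 in knock-in against 10.18 and 9.94 in wild-type hearts. The part of these cell types in the Ccnd1 values was not tested. Of 19 proliferating cell markers, 11 were higher and 8 lower (median 0.02). The proliferation marker Mki67 had 6.06 and 6.43 in knock-in hearts, against 5.86 and 5.82 in wild-type hearts. Its difference of 0.40, the largest in that list, did not pass (limma adjusted p = 0.458). Mki67 lay above the array median on only 1 array.

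Ccnd2, the cyclin D2 gene, had 7 probe sets, which gave 4 higher and 3 lower means. The brightest, 1434745_at, had 11.09 and 11.20 in knock-in hearts, against 11.10 and 11.14 in wild-type hearts. These 4 values lie within a narrow range, and the difference was 0.02 with an interval from −0.24 to 0.28 (limma adjusted p = 0.946). Probe set 1416122_at had 10.74 and 10.99 in knock-in hearts, against 11.07 and 11.04 in wild-type hearts, the only Ccnd2 probe set without overlap, at −0.19 (adjusted p = 0.564). Probe set 1448229_s_at showed the largest gap between replicates of all 23, with 8.33 and 9.11 in knock-in and 8.79 and 9.09 in wild-type hearts. Its difference of −0.22 came with an interval from −0.82 to 0.38, and without knock-in replicate 1 it was 0.16. The suffix of this probe set marks probes that several transcripts share. The other 4 Ccnd2 probe sets differed by between −0.05 and 0.07. Ccnd3, the remaining D-type cyclin gene, had 10.40 and 10.49 in knock-in hearts, against 10.69 and 10.40 in wild-type hearts, with a difference of −0.09 and an interval from −0.41 to 0.22.

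**Figure D3:**
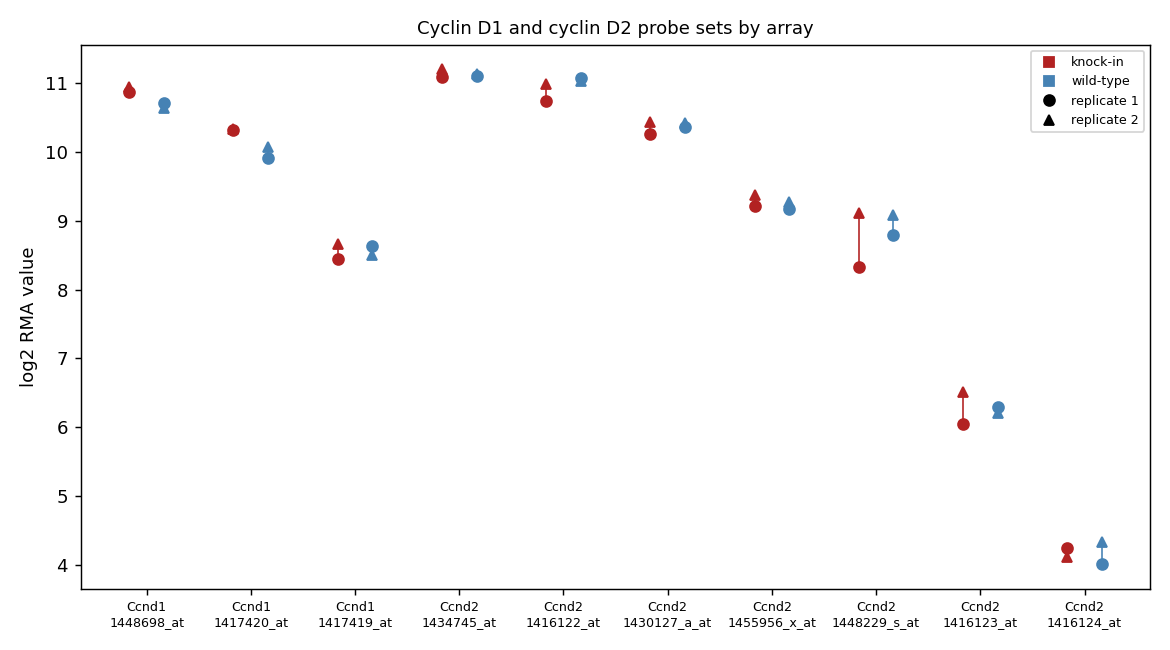
Log2 RMA values of the 3 Ccnd1 and 7 Ccnd2 probe sets by array (red, knock-in; blue, wild-type; circle, replicate 1; triangle, replicate 2; n = 2 arrays per genotype). Levels of different probe sets are not comparable; within a probe set, Ccnd1 1448698_at and 1417420_at separate by genotype, and Ccnd2 1448229_s_at spans 8.33 to 9.11 within the knock-in arrays.

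Myc was measured by 1 probe set, with 5.44 and 5.57 in knock-in hearts, against 5.48 and 5.78 in wild-type hearts. The groups overlapped and every value lay below the array median. The genotypes differed by −0.12, with an interval from −0.45 to 0.20 (limma adjusted p = 0.716). Among 10 measured partners and relatives of Myc, 5 were higher and 5 lower, with 0 at an unadjusted p under 0.05. Mycn, its closest relative in that list, differed by −0.24, and Mxd3, whose product competes for the partner Max, by −0.28. Fbxw7, which encodes the ubiquitin ligase subunit that recognises Myc phosphorylated by GSK-3, differed by 0.15. Other probe sets of these genes did not all keep these signs, with a range from −0.08 to 0.82 for Mycn, from −0.07 to 0.12 for Mxd3 and a value of −0.02 for Fbxw7.

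The sign of the differences followed the level of the probe set, among the β-catenin targets and in the table as a whole. Of the 11 target probe sets below the array median on all 4 arrays, 10 were lower in the knock-in hearts, with a median of −0.20. Over all 21231 such probe sets 75% were lower, with a median of −0.10. Of the 10 target probe sets above the array median on all 4 arrays, 6 were higher, with a median of 0.04, and over all 21250 such probe sets the median was also 0.04. Groups without overlap on the lower side made up 5 of the 11 dim target probe sets, beside 35.4% of all dim probe sets. The lower means of the dim probe sets of Axin2, Lef1, Nkd1, Notum, Znrf3, Rnf43 and Myc therefore stand in a level range where most probe sets were lower, and the part of this shift in them was not tested.

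**Figure D4:**
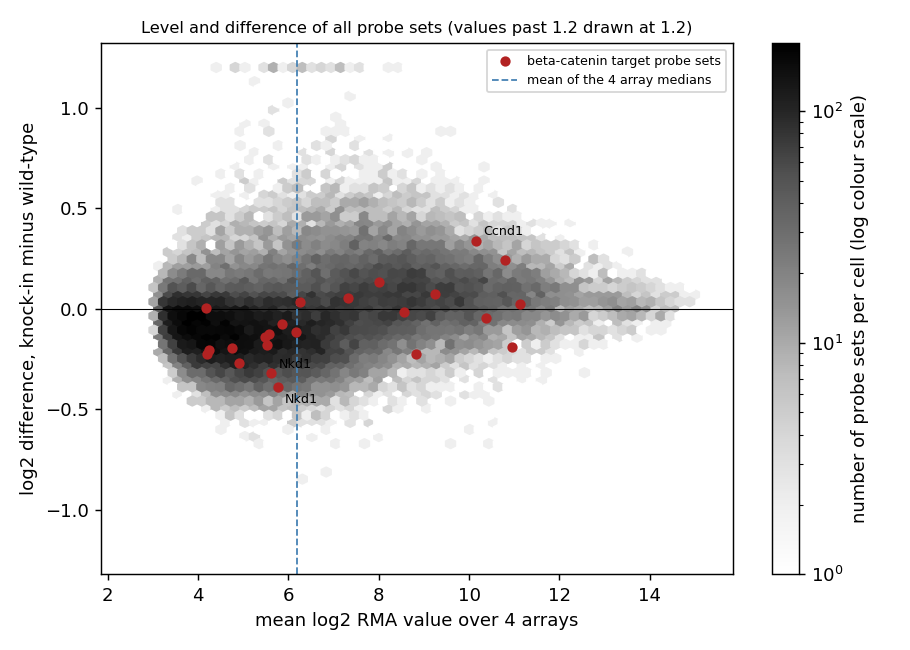
Log2 difference, knock-in minus wild-type, against the mean log2 RMA value over 4 arrays for all 45037 probe sets (grey, darker where more lie) with the 23 β-catenin target probe sets in red; the dashed line is the mean of the array medians. Of the 11 target probe sets below the array median on all 4 arrays, 10 lie below 0, as do 75% of all such probe sets. Ccnd1 lies highest among the targets.

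Genes around the targets were described from 5 lists with 81 measured genes, each by its brightest probe set, of which 41 were higher and 40 lower, and 0 passed the test, beside 0.011% of all 18193 genes. At an unadjusted p under 0.05, 4 were higher (5.45% of all genes) and 6 lower (4.76% of all genes), and the groups did not overlap for 20 higher (22.5% of all genes) and 14 lower ones (24.1%). Of 20 other reported β-catenin targets, 7 were higher and 13 lower (median −0.06). Fosl1, an AP-1 factor gene, differed by −0.37, the matrix protease gene Mmp7 by −0.24, Nkd2, the paralogue of Nkd1, by −0.16 and the AP-1 gene Jun by 0.23. Of 21 receptor, R-spondin and Dishevelled genes, 11 had higher and 10 lower means (median 0.03). The Frizzled receptor genes in it ran in both directions, with Fzd2 at −0.49, Fzd7 at 0.49 and Fzd6 at 0.36, while the co-receptor gene Lrp6 stood at 0.28. For Fzd2, Fzd7, Fzd6 and Lrp6 another probe set of the gene had the opposite sign.

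Of 14 genes for β-catenin and its nuclear partners, 9 were higher and 5 lower (median 0.09). The corepressor gene Tle1 differed by 0.28 and Pygo2, a cofactor of β-catenin, by 0.21. Ctnnb1, the β-catenin gene itself, had 12.97 and 13.08 in knock-in hearts, against 12.97 and 13.02 in wild-type hearts by its brightest probe set, with a difference of 0.03 and an interval from −0.23 to 0.29. Its other 2 probe sets differed by 0.19 and 0.29, both without overlap between the groups (limma adjusted p = 0.507 and 0.502). The kinase genes differed by −0.42 for Gsk3a, with an interval from −0.70 to −0.14 (limma adjusted p = 0.458), and by −0.09 for the brightest Gsk3b probe set; a level of Gsk3a transcript does not check a substitution. The other 5 Gsk3b probe sets ran from −0.45 to 0.06, and 1 of them differed by −0.44 without overlap, with an interval from −0.78 to −0.09 (adjusted p = 0.458). Of 16 D-type cyclin partners and inhibitors, 9 were higher and 7 lower (median 0.05). Cdkn1a, which encodes the p21 inhibitor of cyclin-dependent kinases, had 9.89 and 10.12 in knock-in hearts, against 10.78 and 10.90 in wild-type hearts. That difference of −0.83, with an interval from −1.14 to −0.53, was the largest in these 5 lists and did not pass (limma adjusted p = 0.283), and its other probe set differed by −0.68. The retinoblastoma gene Rb1, whose product D-type cyclin kinases phosphorylate, differed by 0.60, although another Rb1 probe set gave −0.07. The inhibitor genes Cdkn2d and Cdkn2c differed by 0.32 and −0.29.

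**Figure D5:**
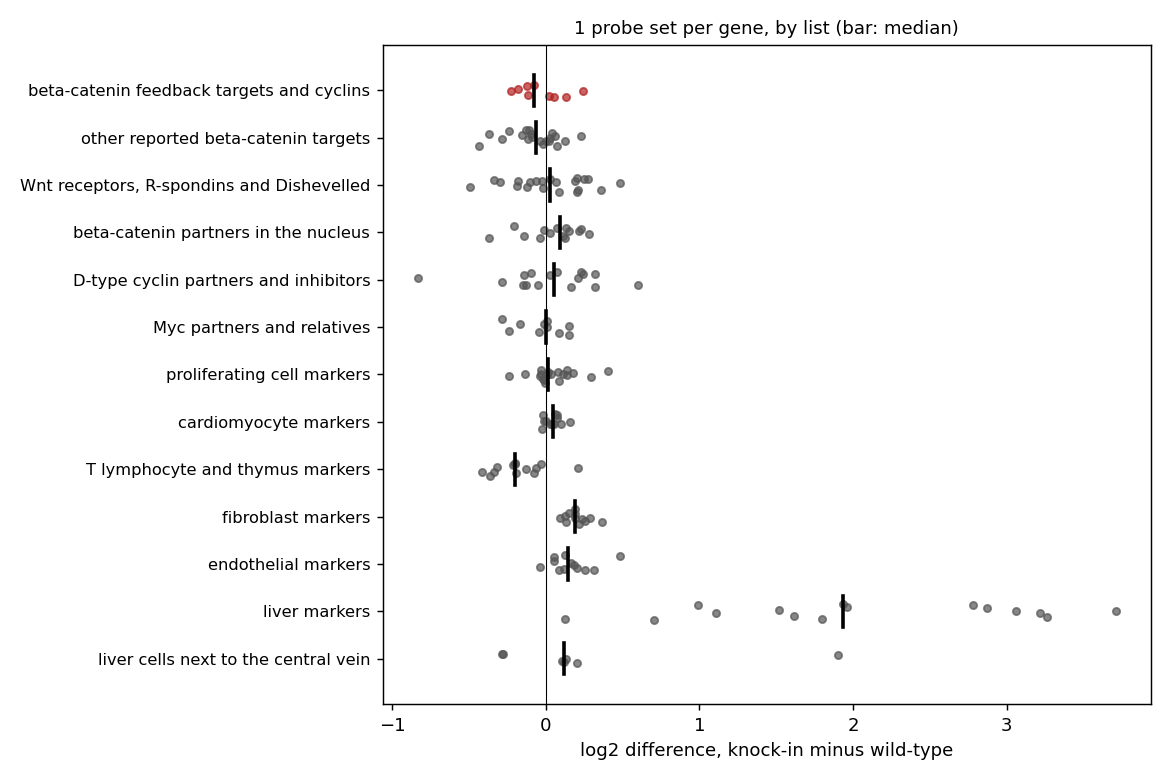
Log2 differences, knock-in minus wild-type, of genes by list, 1 point per gene by its brightest probe set, with a bar at each list's median (n = 2 arrays per genotype). The β-catenin feedback targets and cyclins (red) lie between −0.23 and 0.24, and the liver markers, with a median of 1.93, lie farthest from 0.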

How the data were processed

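Per the submitters' processing notes, the deposited log2 values were made by the authors with RMA in Affymetrix Expression Console. RMA corrects background, equalises the arrays and reduces each probe set to 1 value. Per the labels, the wild-type scans were normalised with these knock-in arrays alone, and the same scans were also normalised in a second set, which was not analysed here. For the program version and any filter, nothing was given in the sources used here.

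Of 45101 probe sets, 64 control probe sets were left out and 45037 tested. The array's annotation gave 1 gene symbol for 34945, several for 932 and none for 9160. Differences were fitted in limma 3.58.1 under R 4.3.3 by lmFit and eBayes without covariates. Adjustment was by Benjamini-Hochberg over all 45037, with a threshold of 0.05. The fit had 2 residual and 4.54 prior degrees of freedom, and was tested on simulated data. Spread between arrays, which may be technical, is all that the p-values reflect, and 2 arrays per group limit precision.

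The probe set with the highest mean over 4 arrays stands for its gene; all probe sets of the β-catenin targets are given. Genes named from the other lists are among the up to 4 per list with the smallest p and a mean of at least 6. Not all of those are named in the text. Gsk3a, Gsk3b, Ctnnb1, Ccnd3, Tcf7l1 and Tcf7l2 were always named. Genes and lists were chosen with earlier results of these data known. Of the 178 entries in the other lists, 171 were measured. Scan dates and batches were not given in the sources used. Alternatives covered the prior, dim and shared probe sets, normalisation, weights per array, a replicate block and each array left out. Figures were drawn in Python 3.11.15 with matplotlib 3.10.9.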

Additional observations from a re-analysis of the deposited data

How the results depend on the processing

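No β-catenin target probe set was called in any of the 14 refits, and the count with each array left out was 0 to 0; at an unadjusted p under 0.05 it was 3. The lowest adjusted p, 0.195, was that of Nkd1 1440446_at without wild-type replicate 2, where the lone wild-type array is assumed to vary like the knock-in arrays. With so few arrays these counts are no sign of stability. The median of the 23 differences, −0.12, became −0.056 with arrays shifted to 1 median, −0.056 after quantile normalisation and −0.050 after cyclic loess; it was −0.046 over the 16 probe sets without shared-probe suffixes, and 0.029 and 0.039 over the 12 and 10 whose mean reached 6 and 7. It lay between −0.13 and −0.061 with 1 array left out, and at −0.061 without knock-in replicate 1. The 3 normalisations moved the median of all probe sets to 0.02, −0.01 and −0.00. Among the other lists, 0 genes were called, and 0 to 0 with 1 array left out, but 1 with arrays shifted to 1 median (Cyp3a11) and 1 with the replicate block (Alb). The count over all probe sets was 3, 11 with arrays shifted to 1 median, 1 among probe sets whose mean reached 7, and 0 to 2 with 1 array left out, at 0 without knock-in replicate 1.

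Signs turned in 21 of 291 refitted differences, all of them after a normalisation or with 1 array left out. The refits of the prior, the weights, the replicate block and the filtered sets leave each difference unchanged. Their values are among the 291, although no sign could turn there. With arrays shifted to 1 median these were Ccnd1 1417419_at at 0.045 and Ccnd2 1430127_a_at at 0.015. After quantile normalisation they were Ccnd2 1434745_at at −0.056 and 1455956_x_at at −0.024, and after cyclic loess Ccnd2 1434745_at at −0.050 and Nkd1 1429507_at at 0.028. The 15 turns with 1 array left out ranged per probe set between −0.20 and 0.046 for Nkd1 1429507_at, −0.046 and 0.16 for Znrf3 1435608_at, −0.31 and 0.028 for Znrf3 1437646_at, −0.26 and 0.022 for Lef1 1454734_at, −0.27 and 0.024 for Myc, −0.13 and 0.095 for Ccnd1 1417419_at, −0.15 and 0.17 for Ccnd2 1416124_at, −0.20 and 0.26 for 1416123_at, −0.13 and 0.041 for 1430127_a_at, −0.61 and 0.16 for 1448229_s_at, −0.035 and 0.080 for 1434745_at and −0.0078 and 0.16 for 1455956_x_at. Averaging a gene's probe sets gave −0.034 for Axin2, −0.043 for Znrf3 and −0.045 for Ccnd2, each of opposite sign to the brightest probe set. Apart from the size of the sets tested, the causes were not tested.

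The replicate numbers were checked as a pairing: deviations of same-numbered arrays correlated at 0.08 over probe sets. With 2 arrays per genotype, this value cannot tell whether same-numbered arrays share a litter, day or batch. With the replicate block, 0 target probe sets and 4 of all probe sets were called. With 2 arrays per genotype and no detection calls in the values used, levels near background cannot be told from background.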
